A study of Saccharomyces cerevisiae with 35 samples.

Results

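The comparison described here is between wild-type yeast cells collected 40 to 60 min after rapamycin and wild-type cells of the same cultures collected 20 to 40 min after it, which shows what the response did once its first phase was over. Cells labelled wild type were taken from the 8 single-cell libraries of 20 to 60 min, and their UMIs (unique molecular identifiers, 1 per captured transcript) were summed per culture and 10 min interval. These were 70436 of the 173347 cells of the study, 30087 collected at 40 to 60 min and 40349 at 20 to 40 min, in 4 sums a side (40 to 50 and 50 to 60 min, against 20 to 30 and 30 to 40 min, in 2 cultures). The cells were Saccharomyces cerevisiae of the FY4/5 background, grown in the rich medium YPD at 30 °C and exposed to 200 ng/mL rapamycin from 0 min on. In each culture 72 wild-type strain codes shared the flask with 6 strain codes lacking FPR1, and culture was drawn continuously into an RNA-preserving solution, so that every interval holds successive cells of 1 flask. Both sides of the comparison carried the drug. Wild-type cells of -20 to 0 min, before the drug, and of 0 to 20 min gave the early response. The fpr1 deletion cells of the same libraries gave the change without Fpr1, the protein that binds rapamycin. A second measurement came from 3 separate wild-type cultures sampled in bulk at 45 and 60 min, against 30 min.

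Rapamycin binds Fpr1, and that complex inhibits TORC1, a kinase complex that promotes ribosome production and growth while nitrogen and amino acids are plentiful. When TORC1 is inhibited, the GATA factors Gln3 and Gat1 switch on genes for the use of poor nitrogen sources (nitrogen catabolite repression, NCR), Msn2 and Msn4 switch on general stress genes, and the genes for ribosomal proteins (RP) and for ribosome biogenesis (RiBi) are shut down. Translation of Gcn4, the activator of amino acid synthesis genes, is known to increase under such conditions. Rpn4, a short-lived activator that the proteasome itself degrades, sets the level of proteasome genes.

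The promoters below belong to genes whose late change is described in the following paragraphs. They are shown because they hold a short motif carried by many genes of the same group. The windows lie within 300 bases before the start codon, in RefSeq assembly R64, the same as the sacCer3 build that the submitters' processing notes name. Motifs were searched on both strands, and the matches are in capitals. Matches describe the letters only; binding was not measured. TGACTC, the core of the site of Gcn4 and also of Bas1, was in 75.0% of the promoters of 40 Gcn4 target genes, in 64.3% of 14 purine synthesis genes and in 15.4% of 1224 genes called higher at 40 to 60 min, against 7.96% of all 5515 promoters. The longer Gcn4 site TGACTCA, which contains that core, was in 55% of the Gcn4 target promoters, against 2.70% of all. Also searched were ACGCGT, the site of the G1/S factor MBF, found in 30.4% of 23 promoters of G1/S genes and 3.66% of all, and CACGTGA, the site of Cbf1, found in 2.65% of all. TGACTC is in capitals in SNZ1 (chrXIII:458134-458254, plus strand), in HIS5 (chrIX:142706-142751, plus strand) and in SHM2 (chrXII:259603-259698, minus strand). SHM2 also holds, in capitals, the zinc-responsive element, the site of the zinc-sensing activator Zap1, as does ZRT1 (chrVII:20754-20804, plus strand). That site was in 50.0% of 8 zinc regulon promoters and 0.29% of all. It is next to the second TGACTC of SHM2 and does not overlap it.
SNZ1: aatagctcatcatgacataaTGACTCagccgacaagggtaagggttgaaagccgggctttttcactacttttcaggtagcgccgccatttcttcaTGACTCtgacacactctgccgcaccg
HIS5: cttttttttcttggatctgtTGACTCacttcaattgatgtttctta
SHM2: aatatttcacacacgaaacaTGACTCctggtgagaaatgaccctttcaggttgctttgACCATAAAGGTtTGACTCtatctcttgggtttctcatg
ZRT1: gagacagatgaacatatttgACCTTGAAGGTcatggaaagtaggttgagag

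GGTGGCAAA, the proteasome-associated element bound by Rpn4, was in 81.8% of 33 proteasome promoters and in 8.29% of 217 promoters of genes that were higher early and lower late, against 1.31% of all. It is shown in RPT3 (chrIV:1261485-1261533, plus strand) and PRE1 (chrV:177673-177721, plus strand), the proteasome genes with the largest falls among those that hold it. It is also shown in ECM29 (chrVIII:39933-39981, plus strand) and CUZ1 (chrXIV:342305-342353, plus strand), which were higher early and lower late and are not subunits of the core particle. AGGGG, the stress response element of Msn2 and Msn4, was in 82.4% of 34 general stress promoters and in 41.0% of those 217, against 22.5% of all. GATAAG, the site of the GATA factors, was in 57.1% of 28 NCR promoters and 14.3% of the 217, against 14.6% of all. AGGGG is in capitals in PGM2 (chrXIII:477798-477885, minus strand). GATGAG, the core of the PAC element bound by the repressors Dot6 and Tod6, was in 93.1% of 72 RiBi promoters and in 44.6% of 359 promoters of genes that were lower early and higher late, against 18.8% of all. AAAATTTT, the RRPE element bound by Stb3, was in 84.7% of the RiBi promoters and 25.6% of those 359, against 9.94% of all. Both are in capitals in UTP5 (chrIV:1267248-1267365, plus strand), without overlapping.
RPT3: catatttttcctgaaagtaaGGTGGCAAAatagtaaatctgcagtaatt
PRE1: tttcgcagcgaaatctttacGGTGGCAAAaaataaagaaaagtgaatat
ECM29: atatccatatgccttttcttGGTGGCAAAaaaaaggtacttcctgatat
CUZ1: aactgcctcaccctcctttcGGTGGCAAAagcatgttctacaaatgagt
PGM2: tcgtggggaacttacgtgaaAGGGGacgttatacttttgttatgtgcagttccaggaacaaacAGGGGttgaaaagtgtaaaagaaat
UTP5: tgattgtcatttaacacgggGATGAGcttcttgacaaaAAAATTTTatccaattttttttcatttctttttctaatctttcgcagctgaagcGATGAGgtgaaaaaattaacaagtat

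The 8 wild-type sums held 3993298 to 52188028 UMIs, from 1693 to 14688 cells each, and both culture 1 sums of 40 to 60 min were shallower than the others. FPR1, the deleted gene, stood in deletion cells at 1.03% to 7.91% of its level in wild-type cells of the same library over all 16 libraries, and in wild-type cells it did not pass the test between 40 to 60 and 20 to 40 min (log2 change -0.025). The makeup of culture 1 moved with time: deletion cells were 7.57%, 11.95%, 17.03% and 30.6% of its library cells at 20 to 30, 30 to 40, 40 to 50 and 50 to 60 min, against 5.06% to 5.93% in culture 2. Of the 72 wild-type strain codes, 7 had a median share of mitochondrial-genome transcripts of 0 before the drug. They made up 2.34%, 1.28%, 1.14% and 0.768% of wild-type cells over these intervals in culture 1. In culture 2 they made up 5.71%, 4.73%, 4.24% and 3.79%. A fit without them, chosen after seeing the data, passed 2264 genes in the late test described below. The part of the shift in deletion cells in the results was not tested, but each culture's own value is given for some genes and lists where they part. The median late log2 change in cultures 1 and 2 was 0.50 and 0.12 for mitochondrial-genome transcripts and -0.53 and -0.30 for G2/M genes. It was 0.72 and 0.45 for glyoxylate cycle, 0.48 and 0.30 for sulfur and 0.34 and 0.53 for one-carbon genes. Of the cells in these 8 libraries, 1.69% shared a barcode sequence with a cell of another library, and no pair of libraries shared over 0.574%. Fewer cells of a kind and less RNA per cell cannot be told apart in a sum. The cultures are the replicates of each interval, and the intervals of a culture are successive samples of 1 flask. The p-values rest on the spread between the 2 cultures within an interval. That spread was estimated over all 32 sums, those of deletion cells and of earlier intervals included. Many ribosomal protein genes, and SSB1, have a near-identical copy elsewhere in the genome, and how their counts were divided between copies is uncertain.

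Between 40 to 60 and 20 to 40 min, 2268 of 5549 genes tested (40.9%) passed edgeR's quasi-likelihood test at a Benjamini-Hochberg (BH) adjusted p under 0.05, and such genes are called below. Of these 1228 (22.1% of the genes tested) rose and 1040 (18.7%) fell. A change of at least 2-fold was reached by 110 of the genes that rose and 173 of those that fell. The 4 sums of one side did not overlap the 4 of the other in 1831 genes (33%). The balance of directions depended on scaling. With TMM scaling 54.1% of calls were rises and the median log2 change of all genes was 0.047; with library totals 76.9% of 1912 calls were rises and that median was 0.17, a shift of 0.12. With sums scaled by cell number 496 genes were called, among them 113 ribosomal protein, 6 mitochondrial ribosomal protein, 5 translation factor, 5 proteasome and 1 fatty acid synthesis gene that fell. Also among them were 21 Gcn4 targets, 4 one-carbon, 5 glyoxylate cycle, 5 sulfur and 7 ribosome biogenesis genes that rose. In every other list described below it called at most 4 genes in either direction, and it called none that fell among respiratory, general stress, histone, G2/M and early G1 genes. All changes below are on the TMM scale. Groups in which most members fell included ribosomal proteins, proteasome subunits, mitochondrial ribosomal proteins, translation factors and fatty acid synthesis. Groups in which most members rose were the Gcn4 targets, one-carbon metabolism, the glyoxylate cycle and sulfur assimilation. Genes are named by size where they had at least 10 CPM on average over the 8 sums and moved the same way in both cultures.

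**Figure D1:**
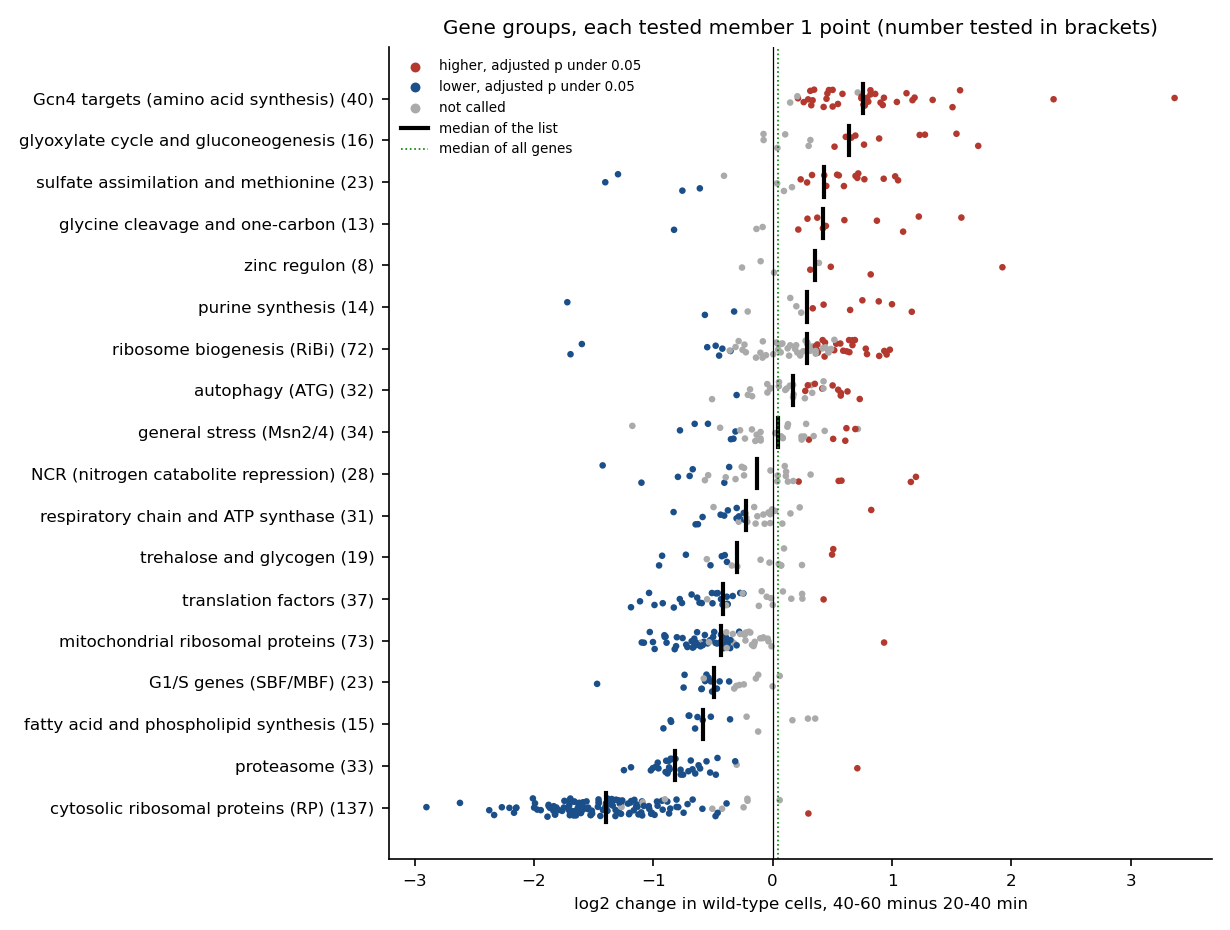
Log2 change of each gene at 40 to 60 against 20 to 40 min in wild-type cells, for the members of 18 gene lists. Each dot is 1 gene, red where called higher, blue where called lower and grey where not called; the black bar is the list's median and the green dotted line the median of all 5549 genes (0.047). The ribosomal protein list lies furthest to the left, with a median of -1.40, and the Gcn4 targets lie to the right, with a median of 0.75.

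Genes for cytosolic ribosomal proteins made up most of the largest falls. Of 137 tested, 127 fell (18.7% of all genes did), 1 rose and 9 were not called, with a median log2 change of -1.40 against 0.047 for all genes. The list had a median of -0.68 at 0 to 20 min against untreated cells and of -4.40 at 40 to 60 min against untreated cells. Its summed level was 97836, 49606, 31289 and 25473 CPM (counts scaled to a common library size) at 20 to 30, 30 to 40, 40 to 50 and 50 to 60 min in culture 1, and 99784, 52492, 30849 and 24496 CPM in culture 2. Each step was smaller than the one before it in both cultures. In wild-type cells these sums were 7.0% to 29.2% of those in the deletion cells of the same libraries. Below, 4 values for a span are those of culture 1 and then of culture 2, each in order of time.

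RPS3 (YNL178W), a small-subunit protein, stood at 72.1, 47.2, 117 and 44.3 CPM at 40 to 60 min, against 782, 264, 807 and 345 CPM at 20 to 40 min. The spans did not overlap, and in both cultures 50 to 60 min was the lowest interval. Its log2 change of -2.90 ± 0.12 (SE, BH-adjusted p = 1.82e-13 by edgeR) was the largest fall under the naming rule. RPS26B (YER131W) stood at 28.9, 28.6, 32.2 and 22.01 CPM at 40 to 60 min, against 320.3, 73.6, 355 and 96.6 CPM at 20 to 40 min, a log2 change of -2.62. Of the 12 genes with the largest falls, 11 encode ribosomal proteins, and their log2 changes lay between -2.90 and -1.999 (RPL9A -2.37, RPS8B -2.33, RPL26B -2.27, RPS22A -2.21, RPS7A -2.17, RPL21A -2.15, RPS16B -2.15, RPL5 -2.01 and RPL22A -1.999). Over all genes tested the 4 sums a side did not overlap in 33%. In none of the 12, chosen by size from these sums, did the 40 to 60 min sums overlap those of 20 to 40 min. The other one was SSB1 (YDL229W), an Hsp70 chaperone that binds nascent chains on the ribosome, at 59.8, 52.6, 59.1 and 38.7 CPM at 40 to 60 min, against 451, 142, 456 and 153 CPM at 20 to 40 min (log2 change -2.32 ± 0.10 SE, BH-adjusted p = 2.28e-13 by edgeR). RPL3, a large-subunit protein, changed by -1.56. The member that rose was RPL22B, the less abundant copy of RPL22A, by 0.30; it was not called with sums scaled by cell number.

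Other parts of the translation machinery fell as well. Of 37 translation factors 24 fell and 1 rose, with a median of -0.42; YEF3, the fungal elongation factor eEF3, changed by -1.19 and TEF4, a subunit of elongation factor eEF1B, by -1.11. With library totals 10 were called lower, and the median was -0.30. Of 73 mitochondrial ribosomal proteins 48 fell and 1, RSM22, rose, with a median of -0.43; with library totals 17 were called lower, and without the 30 to 40 min sum of culture 2 the number was 29. MNP1, a protein of the large mitochondrial subunit, changed by -1.10. That list had a median of 0.061 at 0 to 20 min, and of -0.65 at 40 to 60 min against untreated cells. Of 17 heat shock chaperones 10 fell (5 with library totals), among them SSA2 (-1.11) and HSC82 (-0.84), and 1 rose.

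**Figure D2:**
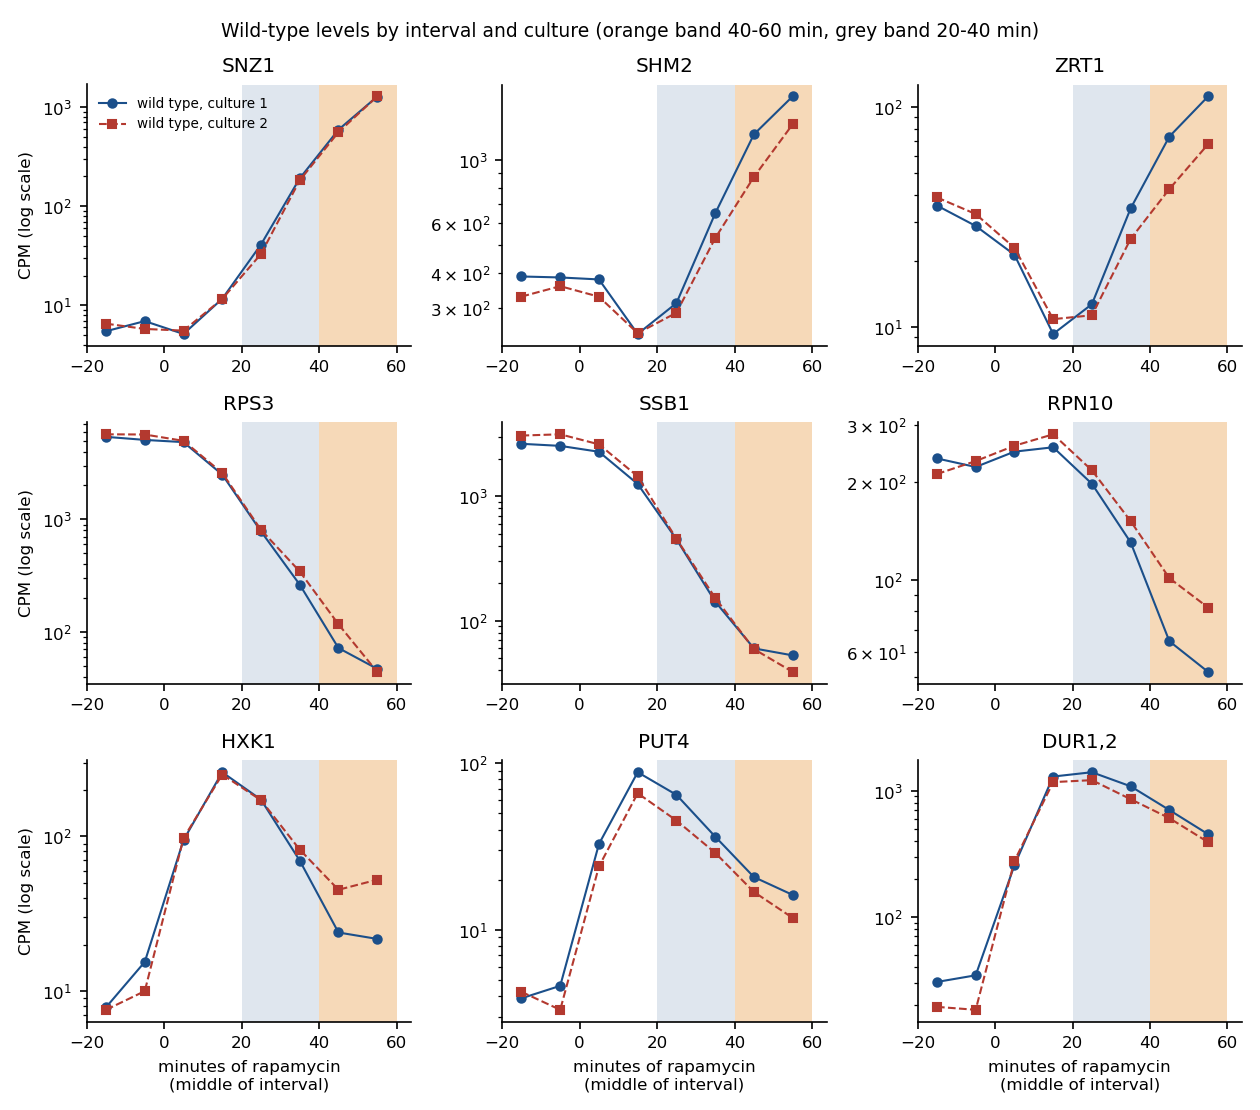
TMM-normalized CPM (log axis) of 9 named genes against the interval, from -20 to 60 min around rapamycin, with 1 line per culture. The orange band marks 40 to 60 min and the grey band 20 to 40 min. SNZ1, SHM2 and ZRT1 climb through both bands, and RPS3, SSB1 and RPN10 fall through them. HXK1, PUT4 and DUR1,2 climb before 20 min and fall after it, except that HXK1 in culture 2 rises at the last step.

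Nearly all proteasome genes fell late. Of 33 tested, 31 fell, 1 rose (RPN4) and 1 was not called, with a median of -0.81, against 0.13 at 0 to 20 min and -1.16 at 40 to 60 min against untreated cells. The median was -0.98 in culture 1 and -0.65 in culture 2. With library totals 25 were called lower, and with sums scaled by cell number 5. PRE5 (YMR314W), a subunit of the core particle, stood at 99.2, 80.7, 127 and 107 CPM at 40 to 60 min, against 289, 191, 319 and 204 CPM at 20 to 40 min, and the spans did not overlap. Its log2 change was -1.25 ± 0.085 (SE, BH-adjusted p = 1.24e-10 by edgeR). RPN10 (YHR200W), a ubiquitin receptor of the regulatory particle, stood at 64.6, 52.0, 101 and 82.1 CPM at 40 to 60 min, against 198, 130.4, 217 and 152 CPM at 20 to 40 min, a change of -1.19. RPT3 and PRE1, whose promoters are shown above, changed by -1.02 and -1.004. RPN4, which encodes the activator of these genes, went the other way, at 50.4, 62.6, 56.0 and 63.5 CPM at 40 to 60 min, against 29.8, 37.7, 32.9 and 42.3 CPM at 20 to 40 min, a log2 change of 0.71 ± 0.11 (SE, BH-adjusted p = 1.63e-05 by edgeR). At 0 to 20 min RPN4 had changed by -0.84 against untreated cells. ECM29, a proteasome-associated protein, and CUZ1, a zinc-finger protein that binds Cdc48 and the proteasome, had risen early by 0.59 and 0.40 and fell late by 1.20 and 1.13.

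Amino acid synthesis genes rose late as a group. Of 40 Gcn4 targets 37 rose (22.1% of all genes did), none fell and 3 were not called, with a median of 0.75; at 0 to 20 min the median was -0.058 and at 40 to 60 min against untreated cells 1.44. The medians of the cultures were 0.77 and 0.71. The summed level of the list was 8771, 12338.6, 15174 and 18289.6 CPM at 20 to 30, 30 to 40, 40 to 50 and 50 to 60 min in culture 1, and 8740, 11759.7, 14615 and 17874 CPM in culture 2. SNZ1 (YMR096W), which makes vitamin B6 together with Sno1, stood at 591, 1275, 558 and 1282 CPM at 40 to 60 min, against 41.0, 191, 32.96 and 182 CPM at 20 to 40 min. Every later interval was higher than the one before it in both cultures. The log2 change of 3.37 ± 0.15 (SE, BH-adjusted p = 2.28e-13 by edgeR) was the largest in the comparison under the naming rule. Its divergent neighbour SNO1 changed by 2.35. HIS5 (YIL116W), the histidinol-phosphate aminotransferase, stood at 458, 628, 410.3 and 536 CPM at 40 to 60 min, against 114, 243, 113 and 259 CPM at 20 to 40 min (log2 change 1.57 ± 0.14 SE, BH-adjusted p = 1.37e-08 by edgeR). HIS4, of the same pathway, stood at 682, 894, 693 and 893 CPM at 40 to 60 min, against 326, 531, 326 and 519 CPM at 20 to 40 min, a change of 0.92. CPA1 (YOR303W), the small subunit of the arginine-specific carbamoyl phosphate synthetase, was lower by 0.36 (log2) early and then higher by 1.51, at 344, 451, 337 and 475 CPM at 40 to 60 min, against 86.2, 216, 92.6 and 220.2 CPM at 20 to 40 min.

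Neighbouring pathways of one-carbon units, purines and sulfur shared part of that rise. Of 13 one-carbon genes 10 rose and 1 fell; SHM2 (YLR058C), the cytosolic serine hydroxymethyltransferase, stood at 1232, 1678, 872 and 1338 CPM at 40 to 60 min, against 312, 648, 289 and 529.7 CPM at 20 to 40 min (log2 change 1.58 ± 0.12 SE, BH-adjusted p = 8.86e-10 by edgeR). GCV1, of the glycine cleavage complex, changed by 1.22 and MTD1, a methylene-tetrahydrofolate dehydrogenase, by 1.09, while MIS1, the mitochondrial C1-tetrahydrofolate synthase, changed by -0.83 (not called with sums scaled by cell number). Of 14 purine genes 7 rose and 3 fell: the ADE genes of the pathway to IMP were among those that rose, with ADE17 at 1.17 and ADE1 at 1.000, and the genes of the branch from IMP to GMP fell. These were GUA1 (YMR217W), the GMP synthase, with -1.72 ± 0.11 (SE, BH-adjusted p = 2.56e-11 by edgeR), and the IMP dehydrogenase genes IMD3 (-0.57, not called with sums scaled by cell number) and IMD4 (-0.32). GUA1 stood at 14.4, 10.8, 15.2 and 9.82 CPM at 40 to 60 min, against 63.3, 24.9, 61.8 and 27.4 CPM at 20 to 40 min. Of 23 sulfate assimilation and methionine genes 15 rose and 4 fell, and 9 rose without the 40 to 50 min sum of culture 1 or without the 20 to 30 min sum of culture 2. STR3 (cystathionine beta-lyase, 1.05) and the activator MET28 (1.03) had the largest rises, and the methionine permease gene MUP1 (-1.40) and SAM2 (-1.30), an S-adenosylmethionine synthetase, the largest falls. SAM1, the near-identical copy of SAM2, went up by 0.93.

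Genes of carbon use from non-sugar sources also rose. Of 16 genes of the glyoxylate cycle, gluconeogenesis and acetyl-carnitine transfer 10 rose and none fell, with a median of 0.64. YAT2 (YER024W), a carnitine acetyltransferase, stood at 276, 402, 219 and 316 CPM at 40 to 60 min, against 59.8, 164, 53.9 and 122 CPM at 20 to 40 min (log2 change 1.72 ± 0.15 SE, BH-adjusted p = 1.08e-08 by edgeR). MLS1, the malate synthase of the glyoxylate cycle, changed by 1.54, CRC1, the mitochondrial carnitine carrier, by 1.28 and FBP1, the fructose-1,6-bisphosphatase, by 0.89. Glycolytic genes went the other way in part: of 21, 10 fell (4 with library totals) and 1 rose. ALD6 (YPL061W), the main cytosolic acetaldehyde dehydrogenase, stood at 136, 106, 194 and 164 CPM at 40 to 60 min, against 495, 219, 632 and 284 CPM at 20 to 40 min, a change of -1.33, after an early change of 0.39.

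ZRT1 (YGL255W), the high-affinity zinc transporter, had the third largest rise under the naming rule. It stood at 73.7, 112, 42.5 and 68.0 CPM at 40 to 60 min, against 12.7, 34.6, 11.3 and 25.1 CPM at 20 to 40 min, with no overlap, a log2 change of 1.93 ± 0.17 (SE, BH-adjusted p = 1.12e-08 by edgeR). At 0 to 20 min it had fallen by 1.18 on the log2 scale. Of 8 zinc regulon genes 4 rose and none fell; the other 3 that rose were the low-affinity transporter ZRT2 (0.82), the activator gene ZAP1 (0.49) and the vacuolar transporter ZRT3 (0.32). MCH5 (YOR306C), the plasma membrane riboflavin transporter, stood at 69.4, 97.9, 51.4 and 78.7 CPM at 40 to 60 min, against 13.5, 31.2, 13.1 and 25.8 CPM at 20 to 40 min (log2 change 1.90). CTF13 (YMR094W), a kinetochore subunit, changed by 2.20, but it lies tail to tail with SNO1, within 300 bases. AAD10 (YJR155W), a putative aryl-alcohol dehydrogenase, changed by 1.80, YNR065C, without a known function, by 1.69, and MUM3 (YOR298W), needed for the outer spore wall, by 1.56. SWF1 (YDR126W), a palmitoyltransferase, changed by 1.87, and its sums overlapped: it stood at 170.0, 229, 75.3 and 135 CPM at 40 to 60 min, against 29.4, 82.1, 20.7 and 51.8 CPM at 20 to 40 min. YCR099C overlaps the gene EMA35 and changed by 1.82.

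The early response was compared with the late one to find genes that turned back. At 0 to 20 min against untreated cells 2989 genes were called (53.9%), 1527 higher (27.5%) and 1462 lower (26.3%). Of those called higher early, 218 fell late (14.3% of the early rises and 20.96% of the late falls; 3.93% of all genes tested), 402 rose further and 907 were not called late. Of those called lower early, 360 rose late (24.6% of the early falls and 29.3% of the late rises; 6.49% of all), 367 fell further and 735 were not called late. Among all genes tested, 18.7% fell late and 22.1% rose late. The 14.3% of early rises was thus below the share of all genes, and the 24.6% of early falls was near it. With the culture as a block the classes held 334 and 522 genes, with library totals 103 and 262, and with sums scaled by cell number 13 and 64. A further 466 genes rose late and 455 fell late without an early call. The early and the late comparison share no sum. Levels at 40 to 60 min were then compared with untreated cells, where 81.6% of all genes were called, 44% higher and 37.6% lower. Of the 218, 82 (37.6%) were still higher, 65 (29.8%) were lower and 71 were not called. Of the 360, 195 (54.2%) were still lower, 83 (23.1%) were higher and 82 were not called. The median late change was -0.50 against an early one of 0.56 in the first class, and 0.54 against -0.73 in the second.

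**Figure D3:**
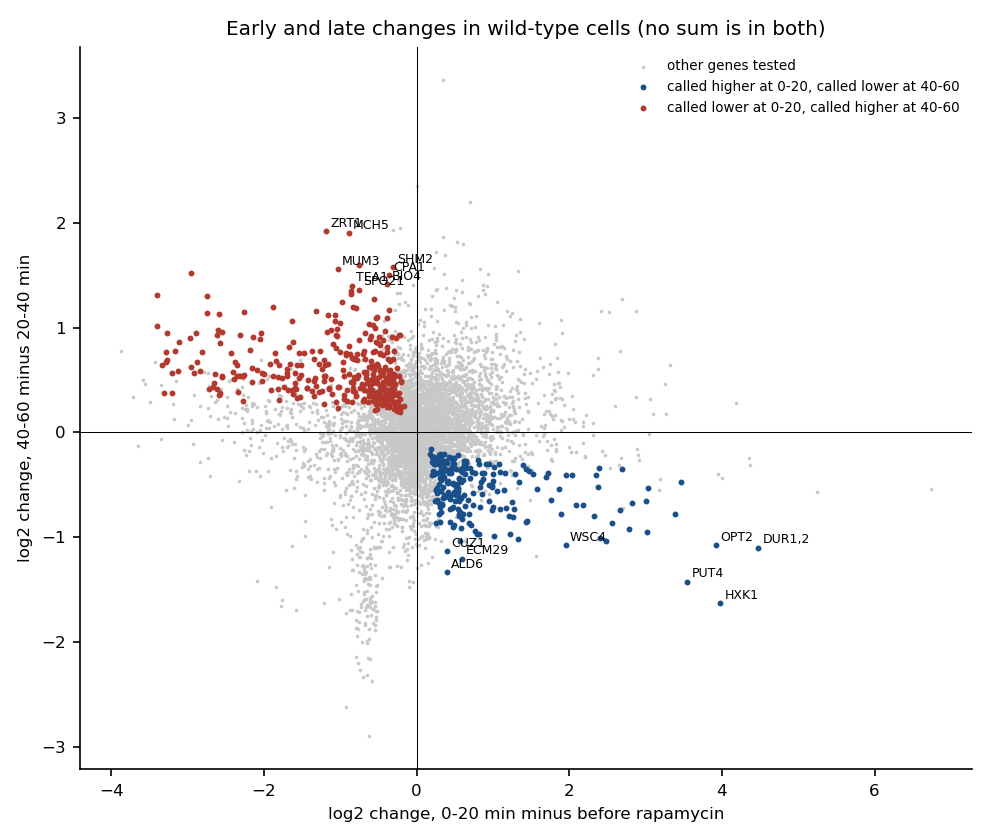
Late log2 change (40 to 60 against 20 to 40 min, vertical) against early log2 change (0 to 20 min against untreated cells, horizontal) for 5549 genes in wild-type cells. Blue dots were called higher early and lower late (218 genes), red dots lower early and higher late (360), and grey dots are all others; the named genes of these classes are labelled. HXK1, PUT4 and DUR1,2 lie far to the lower right, ZRT1, MCH5 and SHM2 to the upper left.

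The 8 largest falls after an early rise came from sugar phosphorylation, nitrogen use, membrane transport and protein turnover. HXK1 (YFR053C), a hexokinase that is repressed by glucose, stood at 24.0, 21.8, 45.2 and 52.5 CPM at 40 to 60 min, against 173, 69.8, 171 and 82.2 CPM at 20 to 40 min, and at 7.88, 15.5, 7.59 and 10.0 CPM before the drug (-20 to -10 and -10 to 0 min). The spans did not overlap. It had risen early by 3.98 and its late log2 change was -1.63 ± 0.30 (SE, BH-adjusted p = 2.36e-04 by edgeR), -2.24 in culture 1 and -1.28 in culture 2. PUT4 (YOR348C), the proline permease, stood at 20.7, 16.2, 16.9 and 11.8 CPM at 40 to 60 min, against 64.7, 36.3, 45.3 and 29.0 CPM at 20 to 40 min, an early change of 3.55 and a late one of -1.42. DUR1,2 (YBR208C), the urea amidolyase, stood at 702, 452, 605 and 391 CPM at 40 to 60 min, against 1398, 1081, 1209.8 and 855 CPM at 20 to 40 min, and at 30.6, 34.5, 19.4 and 18.4 CPM before the drug, and its late change was -1.10 ± 0.29 (SE, BH-adjusted p = 0.00495 by edgeR). It fell at every step in both cultures and stayed above its untreated level in every sum. OPT2, an oligopeptide transporter, changed late by -1.08, and WSC4, a cell wall sensor of the WSC family, by -1.08.

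The NCR genes as a list did not go one way late. All 28 tested had been called higher at 0 to 20 min, with a median of 2.33, and at 40 to 60 min against untreated cells the median was 3.61. Late, 7 fell, 5 rose and 16 were not called, with a median of -0.13 (-0.016 with library totals). Among all genes tested 18.7% fell and 22.1% rose late. With the 16 wild-type sums alone 13 were called lower, and 2 or 3 rose without any 1 sum of culture 1 or the 20 to 30 or 30 to 40 min sum of culture 2. Falls were in PUT4, DUR1,2, the glutamine synthetase gene GLN1 (-0.79), the GABA transaminase gene UGA1 (-0.70), the NAD-dependent glutamate dehydrogenase gene GDH2 (-0.67), DAL1 (-0.40) and UGA4 (-0.36), the allantoinase and the GABA permease. Rises were largest in UGA3 (1.20), the activator of GABA use, and PUT1 (1.16), the proline oxidase; PUT4, the permease for proline, and PUT1 thus went opposite ways. GAP1 (YKR039W), the general amino acid permease, stood at 739, 636, 754 and 631 CPM at 40 to 60 min, against 1074, 923, 1034 and 975 CPM at 20 to 40 min, and the spans did not overlap. Its change of -0.54 ± 0.34 (SE, BH-adjusted p = 0.22 by edgeR) did not pass the test, nor did that of MEP2, the ammonium permease (-0.57 ± 0.31 SE, BH-adjusted p = 0.152 by edgeR). DAL80, a GATA repressor, changed by -0.39 ± 0.19 (SE, BH-adjusted p = 0.113 by edgeR); with the culture as a block it was called, at the same size of -0.40. Fitted on the wild-type sums alone, all of these were called, at -0.57 for GAP1, -0.60 for MEP2 and -0.42 for DAL80.

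Genes of the general stress response and of storage carbohydrates also went both ways. Of 34 Msn2/Msn4 genes, with an early median of 1.48, 6 fell, 5 rose and 23 were not called late, with a median near that of all genes. Among all genes tested 18.7% fell and 22.1% rose late, and neither count of Msn2/Msn4 genes stood above those shares. With library totals none was called lower, and without the 40 to 50 min sum of culture 1 or the 30 to 40 min sum of culture 2, 3 fell and 3 rose; 3 also rose without the 20 to 30 min sum of culture 2. HSP12, a membrane-protecting small heat shock protein, stood at 104, 135, 67.6 and 112 CPM at 40 to 60 min, against 56.4, 91.2, 43.9 and 65.4 CPM at 20 to 40 min, a change of 0.71 ± 0.42 (SE, BH-adjusted p = 0.191 by edgeR) that did not pass the test but was called, at 0.68, with wild-type sums alone. CTT1, the cytosolic catalase, stood at 47.2, 48.6, 42.3 and 40.1 CPM at 40 to 60 min, against 46.8, 52.3, 45.6 and 45.4 CPM at 20 to 40 min (-0.10, not called). Of 19 trehalose and glycogen genes, with an early median of 1.10, 7 fell late and all 7 had been called higher early; with library totals 3 were called lower. PGM2 (YMR105C), the major phosphoglucomutase, stood at 51.7, 43.6, 59.0 and 51.9 CPM at 40 to 60 min, against 123, 82.3, 116 and 84.6 CPM at 20 to 40 min (log2 change -0.95 ± 0.21 SE, BH-adjusted p = 0.00121 by edgeR). GSY1, a glycogen synthase, changed by -0.93. The members that rose were the neutral trehalase genes NTH1 (0.51) and NTH2 (0.50), which break trehalose down; both lost the call with sums scaled by cell number, and NTH1 also without either late sum of culture 1 or either earlier sum of culture 2. PGM2 lost it with sums scaled by cell number.

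Many respiratory genes turned back. Of 31 nuclear genes of the respiratory chain and ATP synthase, with an early median of 0.47, 12 fell late, 11 of them after an early call higher, and 1 rose; the list's median was -0.22 late and 0.21 at 40 to 60 min against untreated cells. With library totals 4 were called lower. CYC1, cytochrome c, stood at 111, 84.5, 119 and 94.9 CPM at 40 to 60 min, against 233, 161, 187 and 151 CPM at 20 to 40 min (-0.83), and COX5A, a cytochrome c oxidase subunit, changed by -0.65; neither was called with sums scaled by cell number. CYC7, the alternative form of cytochrome c, was at 18.1, 15.99, 28.5 and 27.7 CPM at 40 to 60 min, against 44.3, 29.4, 48.5 and 39.6 CPM at 20 to 40 min (-0.78) and lost its call with library totals. Of the transcripts of the mitochondrial genome itself, 1 of 11 fell and none rose.

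Genes lower early and higher late included many ribosome biogenesis factors. Of 72 RiBi genes, with an early median of -2.23, 24 rose late and 7 fell, with a median of 0.29 against 0.047 for all genes; all 24 that rose had been called lower early. With the culture as a block 36 rose and 11 fell, and with library totals 32 rose and 2 fell. Levels stayed low: the summed level was 846, 757, 793 and 909.7 CPM at 20 to 30, 30 to 40, 40 to 50 and 50 to 60 min in culture 1, and 861, 752, 788 and 855 CPM in culture 2. These sums were 6.8% to 8.5% of those in deletion cells, while deletion cells made up the shares of the library given above. The part of RNA from those cells in the rise was not tested. UTP5 (YDR398W), a subunit of the small-subunit processome, stood at 10.2, 13.4, 10.7 and 13.2 CPM at 40 to 60 min, against 4.66, 7.97, 5.22 and 6.57 CPM at 20 to 40 min (log2 change 0.98 ± 0.13 SE, BH-adjusted p = 2.59e-06 by edgeR). RPF1, a nucleolar factor of the large subunit, changed by 0.96. NSR1, nucleolin, stood at 2.91, 4.80, 2.41 and 3.18 CPM at 40 to 60 min, against 1.82, 1.86, 2.35 and 1.62 CPM at 20 to 40 min, a change of 0.67 that was not called with sums scaled by cell number, without the 20 to 30 or 50 to 60 min sum of culture 1 or without the 30 to 40 min sum of culture 2. The DEAD-box helicase genes HAS1 (-1.69) and DBP2 (-1.60) fell, HAS1 at 1.21, 0.999, 1.29 and 0.961 CPM at 40 to 60 min, against 5.09, 2.28, 5.08 and 2.69 CPM at 20 to 40 min. At 40 to 60 min against untreated cells the RiBi median was -4.67.

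Besides ZRT1, MCH5, SHM2, MUM3 and CPA1, the largest rises after an early fall were in BIO4, dethiobiotin synthetase of biotin synthesis (1.42), TEA1, an activator of Ty1 (1.40), and SPO21, a meiotic spindle pole body protein (1.37). BIO4 (YNR057C) stood at 39.6, 50.6, 28.7 and 43.4 CPM at 40 to 60 min, against 10.3, 25.6, 9.60 and 19.1 CPM at 20 to 40 min. TEA1 (YOR337W) stood at 67.0, 70.9, 44.2 and 57.0 CPM at 40 to 60 min, against 18.6, 36.5, 12.9 and 28.1 CPM at 20 to 40 min. In none of these, chosen by size from the same sums, did the spans overlap. They did not overlap in 33% of all genes tested. TOD6, which encodes a repressor of RiBi genes, had fallen by 3.40 early and then changed by 1.02, a call lost without the 50 to 60 min sum of culture 2. Of 27 genes of TORC1 and its effectors 11 rose and 1 fell; 6 rose without the 40 to 50 min sum of culture 1 or the 30 to 40 min sum of culture 2, and 7 without the 50 to 60 min sum of culture 1 or the 20 to 30 min sum of culture 2. GLN3, the GATA activator of NCR genes, changed by 0.80, and GIS1, a zinc-finger regulator of starvation genes, by -0.59. Of 32 autophagy genes 10 rose and 1 fell, but only 4 rose without the 40 to 50 or 50 to 60 min sum of culture 1 or the 30 to 40 min sum of culture 2, and 5 without the 20 to 30 min sum of culture 2. Among the 10 were ATG11 (0.63) and ATG8 (0.57).

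**Figure D4:**
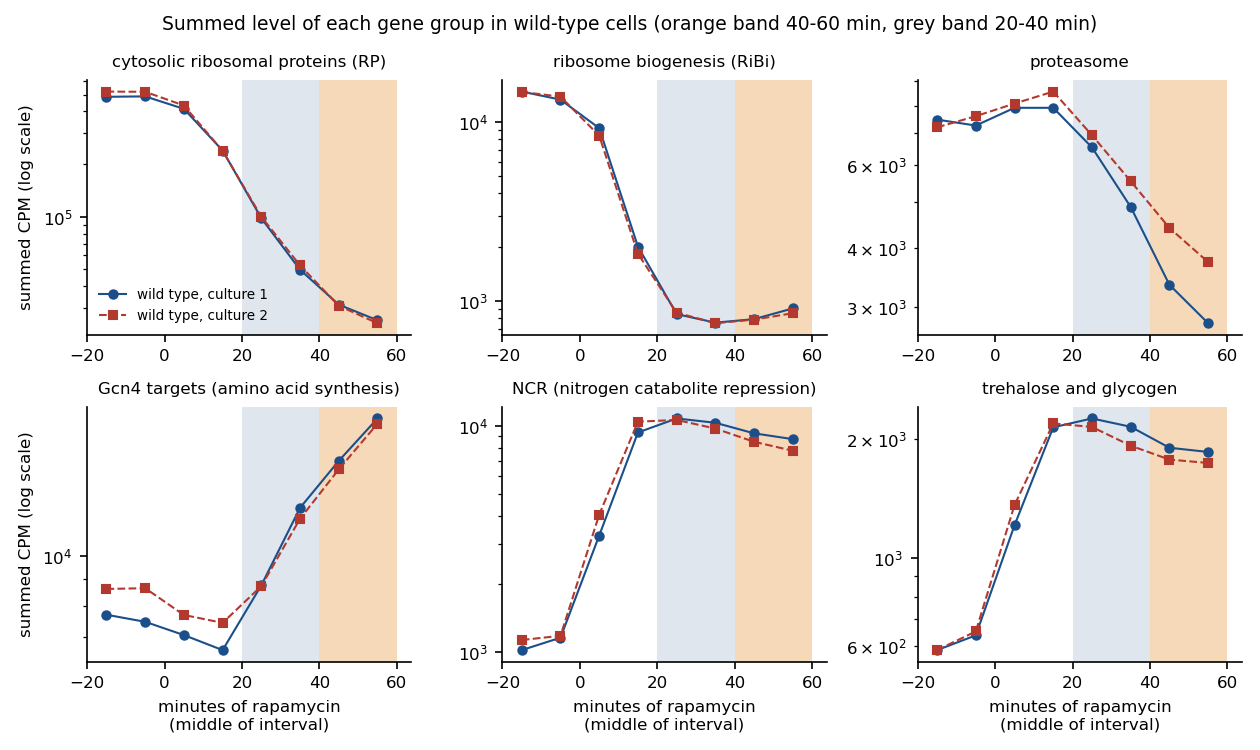
Summed TMM-normalized CPM (log axis) of 6 gene lists against the interval, from -20 to 60 min, with 1 line per culture in wild-type cells. The ribosomal protein and proteasome sums keep falling through 40 to 60 min, the Gcn4 sum keeps rising, the NCR and trehalose and glycogen sums fall from their highest level, and the ribosome biogenesis sum is flat from 20 min on.

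Many cell cycle genes fell late. Of 23 G1/S genes 13 fell and none rose (3 fell with library totals), of 15 G2/M genes 8 fell and none rose (4), and of 16 early G1 and daughter separation genes 9 fell and 1 rose (4 fell). CLB6, an S-phase cyclin, stood at 2.91, 1.40, 5.07 and 2.37 CPM at 40 to 60 min, against 10.8, 5.68, 13.5 and 6.18 CPM at 20 to 40 min (-1.47). CLB2, the main mitotic cyclin, changed by -0.999 (-1.70 in culture 1 and -0.65 in culture 2). EGT2, a cell separation gene made in daughter cells, changed by -0.89 (-1.71 in culture 1 and -0.36 in culture 2); neither CLB2 nor EGT2 was called with sums scaled by cell number. The median of the early G1 list was -0.94 in culture 1 and -0.13 in culture 2. Of 10 histone genes 4 fell and none rose (1 fell with library totals, and 7 with a block for culture). Membrane lipid synthesis fell as well: of 15 fatty acid and phospholipid genes 10 fell and none rose, with a median of -0.59, led by CHO1, phosphatidylserine synthase (-0.92), and ELO2, a fatty acid elongase (-0.85, not called with sums scaled by cell number).

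Within the late span, 50 to 60 min was also compared with 40 to 50 min, 1 sum of each culture a side. edgeR (quasi-likelihood, BH) called 23 genes (0.414%), 7 higher (0.126%) and 16 lower (0.288%), and 337 at an unadjusted p under 0.05; with the culture as a block 57 were called. Of the 16 that fell, 14 were ribosomal protein genes, led by RPS3 (log2 change -1.06) and RPL9A (-1.04). The others were FAA4, an acyl-CoA synthetase, and SFG1, a regulator of filamentous growth. Those that rose were SNZ1 (1.15), the glucanosyltransferase gene GAS2 (1.34), the Hsp40 gene YDJ1 (0.81), the replication licensing gene TAH11 (0.74), ADE1 (0.51), ADE8 (0.40) and the tryptophan synthesis gene TRP2 (0.46), named, like FAA4 and SFG1, after their values were seen. By the same test no gene was called without the 50 to 60 min sum of culture 1 (189 unadjusted) or the 40 to 50 min sum of culture 2 (277 unadjusted), and 6 were without the 50 to 60 min sum of culture 2.

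The fpr1 deletion cells of the same libraries gave the change in cells that lack the drug's binding protein. Between 40 to 60 and 20 to 40 min edgeR (quasi-likelihood, BH) called 1 of 5549 genes in them (0.018%), with 297 at an unadjusted p under 0.05; DESeq2 called 2. The gene was SNZ1, with a log2 change of 1.90, against 3.37 in wild-type cells. Deletion sums held 2296668 to 5191196 UMIs over these intervals, fewer than the wild-type sum of the same library except at 50 to 60 min in culture 1. The difference between the changes of the genotypes, tested as an interaction, was called in 806 genes (14.5%), 337 higher and 469 lower in wild type; with the culture as a block it was called in 1337. Wild-type and deletion sums of an interval came from the same library, and the model held no term for that pairing. Of the 806, 41.8% were higher in wild type, against 55.8% of 443 with library totals and 5.63% of 71 with sums scaled by cell number. It was called lower in 112 of 137 ribosomal protein genes (8.45% of all genes) and in 25 of 33 proteasome genes, and higher in 23 of 40 Gcn4 targets (6.07% of all). Mitochondrial ribosomal proteins had it lower in 16 of 73 and fatty acid synthesis in 9 of 15. Calls higher were made in 8 of 72 RiBi, 4 of 23 sulfur, 3 of 32 autophagy and 1 of 16 glyoxylate cycle genes. No general stress gene was called in either direction. For RPS3 the change was -2.90 in wild type and -0.20 in deletion cells. For ZRT1 it was 1.93 in wild type and 0.029 in deletion cells, and for SHM2 1.58 and 0.27 in the same order. Among genes that turned back, HXK1 changed by -1.63 in wild type and 0.57 in deletion cells. DUR1,2 changed by -1.10 in wild type and -0.86 in deletion cells, and the interaction of -0.24 did not pass (BH-adjusted p = 0.79 by edgeR); its level in deletion cells was 60.0, 24.6, 49.7 and 39.4 CPM at 40 to 60 min, against 111, 109, 49.8 and 36.6 CPM at 20 to 40 min. YCR099C changed by 1.82 in wild type and by 1.89 in deletion cells. The part of wild-type RNA in the deletion cells' values was not tested; the FPR1 level in them is given above.

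**Figure D5:**
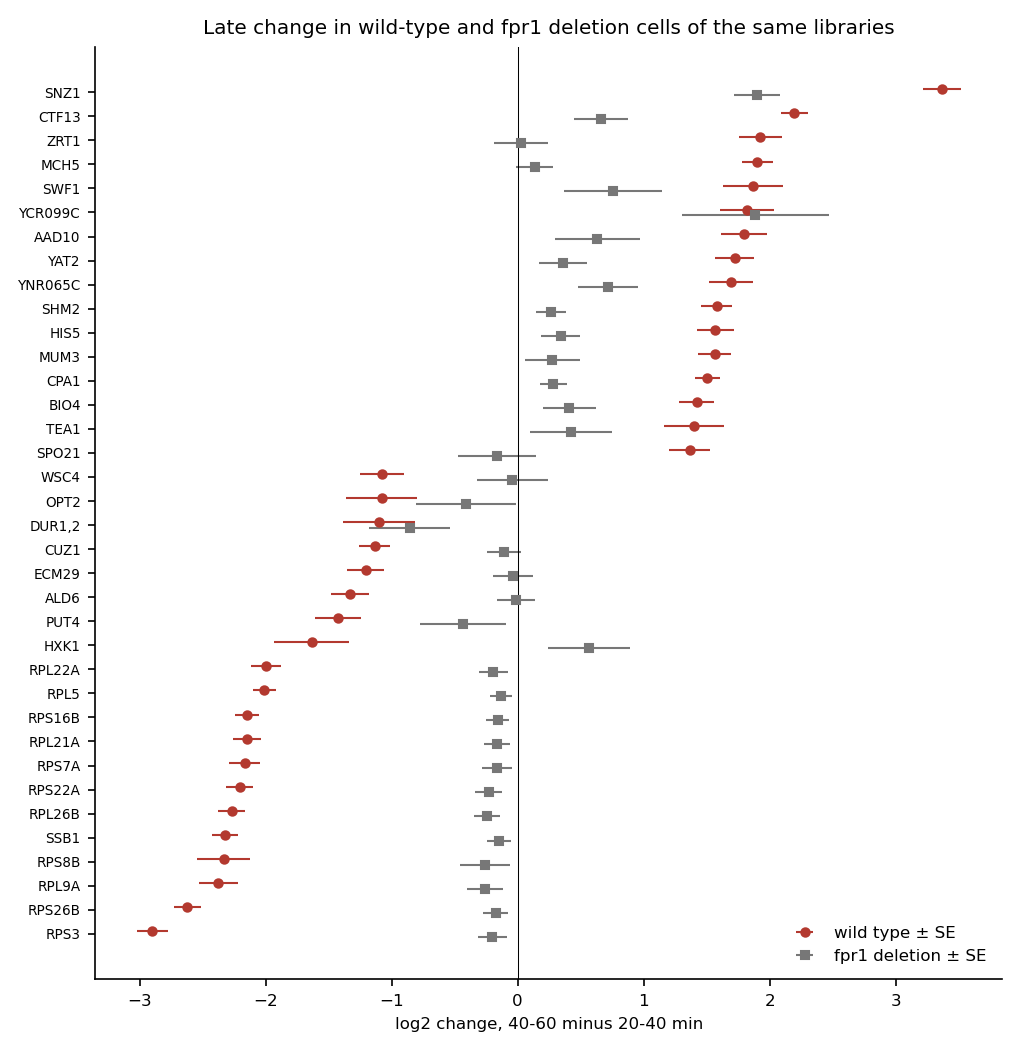
Log2 change at 40 to 60 against 20 to 40 min of the 36 genes named by size or for turning back, in wild-type cells (red circles) and fpr1 deletion cells (grey squares); bars are 1 SE of the edgeR fit. Wild-type values reach from -2.90 for RPS3 to 3.37 for SNZ1, while SNZ1 was the deletion value that passed the test.

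Per cell, 3 measures were compared, in a design whose smallest possible p is above 0.05. The median cell of a sum had 3.76% ± 0.744 of its UMIs in ribosomal protein genes at 40 to 60 min and 9.49% ± 3.23 at 20 to 40 min (SD, n = 4 sums each), a difference of -5.73 percentage points (two-sided exact permutation of intervals within cultures, 36 arrangements, p = 0.0556, the smallest they can give). The median UMIs per cell were 2666 ± 939 and 2855 ± 598 (n = 4 sums each, exact permutation p = 0.611), and the median genes per cell 1029.8 ± 350 and 1062 ± 223 (n = 4 sums each, exact permutation p = 0.778). After thinning every cell to 1000 UMIs, which left out 1832 cells of 40 to 60 min and 2075 of 20 to 40 min, SNZ1 was found in 4.82%, 18.5%, 45.5% and 70.6% of wild-type cells at 20 to 30, 30 to 40, 40 to 50 and 50 to 60 min in culture 1, and in 4.38%, 20.0%, 48.7% and 74.2% in culture 2. The shares before thinning were 10.7%, 30.6%, 64.9% and 82.1% in culture 1. In deletion cells, where the median depth was 3246 to 6234 UMIs against 1729 to 3892 in wild-type cells, the thinned share was 0.946% to 6.00%. RPS3 was found in 56.4%, 25.7%, 8.45% and 5.07% of thinned cells in culture 1 and in 62.1%, 37.4%, 15.8% and 6.33% in culture 2, against 84.0% to 90.5% of deletion cells. DUR1,2 was found in 78.1%, 70.8%, 55.8% and 39.9% in culture 1, a fall at every step. Exact Clopper-Pearson 95% intervals cover counting error only, and for the SNZ1 share of culture 1 at 50 to 60 min they ran 68.1% to 73.1%.

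The bulk cultures were compared at 45 and 60 min against 30 min. Depth there was low, at 3800 to 111293 counts in each of 33 libraries, so 910 genes could be tested, and edgeR (quasi-likelihood, BH) called 46 of them (5.05%), 10 higher (1.1%) and 36 lower (3.96%). The balance of directions in bulk also depended on scaling. Rises were 21.7% of calls with TMM, 42.3% of 52 with DESeq2 and 7.55% of 53 with library totals. The median log2 change of all bulk genes was -0.095, 0.11 and -0.21 in the same order. Bulk signs and medians below are on the TMM scale. All 46 had also been called in the single cells, in the same direction. Most of the 36 falls were in ribosomal protein genes. Of the 36 genes named by size or for turning back, 17 could be tested in bulk. All 17 had the same sign there and 10 were called. Of all 157 named genes 54 could be tested, 47 had the same sign and 12 were called. List medians in bulk were -0.95 for 130 ribosomal protein, -0.64 for 16 proteasome and 0.47 for 24 Gcn4 target genes. They were -0.35 for 10 RiBi and 0.33 for 4 early G1 genes, opposite in sign to the single cells. Opposite signs were also found in other lists, among them sulfur (-0.068, 4 genes), respiratory (0.070, 11), histone (0.044, 7) and vacuolar genes (0.28, 12). The same held for pentose phosphate (0.081, 4 genes), iron (-0.31, 3), NCR (0.0035, 11), general stress (-0.12, 7) and tRNA synthetase genes (0.010, 3). ZRT1 stood in bulk at 139, 291, 125, 164, 114 and 291 CPM at 45 and 60 min in cultures 1, 2 and 3 in turn, against 36.8, 17.6 and 0 CPM at 30 min, a log2 change of 2.81 ± 0.65 (SE, BH-adjusted p = 0.00377 by edgeR). CPA1 changed by 1.42 in bulk and LYS1, of lysine synthesis, by 1.53. Among the falls were RPL21A (-2.61) and YEF3 (-2.04). Leaving out 1 bulk culture lowered the number called to 5, 10 and 24 for cultures 1, 2 and 3. Of the 1228 genes that rose in the single cells 130 could be tested in bulk and 113 had the same sign; of the 1040 that fell, 371 could be tested and 319 had the same sign.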

How the data were processed

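Wild-type and fpr1 deletion cells were measured by droplet 3' single-cell RNA sequencing in 2 cultures at 8 intervals, and 3 other wild-type cultures in bulk at 11 times. The deposited values are raw UMI counts per cell and gene, to which the authors added a genotype, strain code, interval and culture for each cell, and raw counts per gene for the bulk libraries; the sources used here do not say if bulk counts are UMIs or reads. Per the submitters' processing notes, bcl2fastq, kallisto 0.46.1 and bustools 0.39.3 were used with sacCer3. No deposited cell had under 500 UMIs. Doublets were not called; a fit without the 5% of cells with most UMIs was tried. Of 5843 features 5833 were matched to a RefSeq R64 gene. The 16 genotype barcode PCR libraries were not used.

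UMIs were summed per genotype, culture and interval (32 sums). edgeR 4.0.16 (R 4.3.3) was fitted with filterByExpr (5549 genes), TMM factors of 0.788 to 1.62, 1 coefficient per genotype and interval, 16 residual degrees of freedom and a robust quasi-likelihood F-test. The biological coefficient of variation was 14.1%. Benjamini-Hochberg (BH) adjustment ran over the whole gene table, with calls made below 0.05. Each span is the mean of the log2 levels of its intervals. SE is the log2 change divided by the square root of F. Levels are TMM-normalized CPM. Bulk counts (910 genes, 22 residual degrees of freedom, coefficient of variation 29.7%) were fitted alike. Tested on counts simulated for the wild-type comparison over 5549 genes, the fit called 100% of 100 genes changed by 1 on the log2 scale. It called 53.0% of 100 changed by 0.5 and 0.17% of unchanged genes. The simulation gave every gene the same spread and drew the sums independently, without a culture effect. These rates therefore need not hold for the real counts.

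Replicate numbers pair the sums by design, since a number marks the same culture. Deviations of the same culture from the interval means correlated across genes with r of -0.031 to 0.84 over the 8 wild-type intervals and of 0.28 to 0.77 among those of 20 to 60 min. The value with this block is given beside a result where it changes the call or moves a count by over 1.5 times, and for the smaller counts of gene lists at the end.

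Genes were named by rule: the 12 largest rises and falls and the 8 largest changes in each direction of turning back, among called genes of at least 10 CPM that moved the same way in both cultures; up to 2 called members of each of 42 gene lists in each direction; and 12 fixed genes. A few others are said to be chosen after their values were seen, or are given as members of a list. The comparison, the lists and the rule were chosen with earlier results of these data known. Promoters are the 300 bases before the start codon in R64. Alternatives were other scalings, DESeq2 1.42.0, no filter, the culture as a block, subsets of sums, thinned sums, and leaving out cells, strains or single sums.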

Additional observations from a re-analysis of the deposited data

Results flagged for a closer look

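These results were flagged because the late change (40 to 60 against 20 to 40 min) differed between genotypes by the interaction test, at a BH-adjusted p under 0.05 by edgeR's quasi-likelihood test. This held for 806 genes in all, 29 of them among the 36 named by size or for turning back. Values are the log2 change in wild-type cells minus that in fpr1 deletion cells. No cause of these differences was tested.

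Among ribosomal protein genes the difference was -2.70 for RPS3, -2.45 for RPS26B, -2.12 for RPL9A, -2.07 for RPS8B, -2.03 for RPL26B, -1.97 for RPS22A, -2.002 for RPS7A, -1.99 for RPL21A, -1.99 for RPS16B, -1.88 for RPL5 and -1.81 for RPL22A. The chaperone gene SSB1 had -2.17. Among genes that rose, it was 1.47 for SNZ1, 1.53 for CTF13, 1.90 for ZRT1, 1.77 for MCH5, 1.36 for YAT2, 0.98 for YNR065C, 1.32 for SHM2, 1.23 for HIS5, 1.29 for MUM3, 1.22 for CPA1, 1.01 for BIO4 and 1.53 for SPO21. Among genes that were higher early and lower late, it was -2.20 for HXK1, -1.32 for ALD6, -1.17 for ECM29, -1.02 for CUZ1 and -1.03 for WSC4. SNZ1, the gene that also changed in deletion cells, is thus among those whose change was larger in wild type. By Dixon's test none of the 4 sums of a span stood apart from the other 3 in the named values. A span holds 2 intervals of 2 cultures. Where levels moved with time the values come in pairs, and the test then cannot single out 1 sum.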

How the results depend on the processing

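All 36 genes named by size or for turning back kept their direction and their call under the alternatives tried, 756 values in all. Of the 157 named genes' alternative values, 3065 kept their call and its direction or stayed uncalled, 212 lost the call and 19 gained one. One called gene reversed: MFA2, an a-factor gene, changed by -0.62 and by 0.096 with sums thinned to equal depth. FPR1 and CTT1, not called in the main fit, also changed sign, from -0.025 and -0.10 to at most 0.091 and 0.015. With sums scaled by cells the late change was called in 496 genes, its interaction in 71, the early change in 1331, turning back in 77 and 50 to 60 against 40 to 50 min in 0 (151 at an unadjusted p under 0.05). With library totals the interaction was called in 443, turning back in 365 and the last step in 3. The replicate block gave 2919 genes for the late change, 1337 for the interaction and 57 for the last step, where the block with only the groups compared, chosen after seeing the data, gave 150. The last step also gave 50 with DESeq2, 13 with wild-type sums alone, 14 with thinned sums and 0 with only the groups compared (370 unadjusted). DESeq2 called 2 genes in deletion cells. Leaving out 1 sum gave 1652 to 2210 genes for the late change, 599 to 897 for the interaction, 443 to 535 for turning back and 0 to 22 for the last step, and leaving out 1 bulk culture gave 5 to 24. The other counts stayed within 1.5 times, and the block changed no call of a named gene but DAL80; the block with only the groups compared also added calls for GAP1, MEP2, HSP12, CIT2 and CTT1 and ended that of DPS1. The causes were not tested. Depth limits genes under a few CPM, and the shallowest late sum, 50 to 60 min of culture 1, held 3993298 UMIs.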

Other observations

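Some gene groups outside the comparisons above moved in both directions or little, late in wild-type cells. The counts below stand beside 22.1% of all genes tested that rose late and 18.7% that fell. Of 12 haploid and pheromone pathway genes tested, 5 rose and 1 fell, but 2 or 3 rose without either late sum of culture 1 or either earlier sum of culture 2. FUS1, a cell fusion gene induced by pheromone, stood at 11.4, 13.2, 8.91 and 10.6 CPM at 40 to 60 min, against 3.46, 5.90, 2.79 and 6.79 CPM at 20 to 40 min, a log2 change of 1.28, and FUS3, the MAP kinase of that pathway, changed by 1.06, a call lost without the 30 to 40 min sum of culture 2. Of 7 a-cell markers 1 rose and 1 fell, and of 2 alpha-cell markers tested 1 rose; the mating types of the strains were not analysed here. Without any 1 sum of culture 2 no a-cell marker fell, and without the 50 to 60 min sum of culture 2, 2 pheromone genes did. Of 13 meiosis and sporulation genes 2 rose and 1 fell; 1 rose without either late sum of culture 1 or either earlier sum of culture 2, and the number that fell was 0 to 2 without 1 sum.

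Of 10 pyrimidine synthesis genes 3 rose and 3 fell. Of 22 genes of RNA polymerases I and III 6 rose and 1 fell, and 3 rose without the 30 to 40 or 50 to 60 min sum of culture 2. There 3 fell without the 20 to 30 or 30 to 40 min sum of culture 1 or the 50 to 60 min sum of culture 2, and 5 without the 40 to 50 min sum of culture 2. Of 18 tRNA synthetase genes 7 fell (3 with library totals) and 2 rose, or 1 without any 1 sum other than 50 to 60 min of culture 1. Of 12 retrograde genes 3 rose and none fell; CIT2, peroxisomal citrate synthase, stood at 583, 587, 459.9 and 538 CPM at 40 to 60 min, against 439, 503, 419 and 457 CPM at 20 to 40 min, a change of 0.25 that was not called. Of 15 TCA cycle genes 2 rose and 2 fell, with a median of -0.036 that turned to 0.084 with library totals; DESeq2 called 4 lower. Of 21 genes against peroxide 10 fell and 1 rose, 4 fell with library totals, and the median of -0.081 turned to 0.036 there. Of 13 hexose transporter genes tested 5 fell (3 with library totals, where the median of -0.081 turned to 0.071) and none rose, and of 8 pentose phosphate genes 5 fell (1 with library totals) and 1 rose. Of 24 ergosterol genes 6 fell and 3 rose; with library totals none fell and the median of -0.024 turned to 0.088, and 1 rose without the 20 to 30 or 30 to 40 min sum of culture 1 or the 40 to 50 min sum of culture 2. Of 20 vacuolar genes 1 fell and 2 rose. Without either earlier sum or the 40 to 50 min sum of culture 1, or either earlier sum of culture 2, none rose, and 1 did without any other; the number that fell was 0 to 3. Of 16 phosphate genes 3 rose and none fell; 1 rose without the 30 to 40 min sum of culture 1 or the 20 to 30 or 50 to 60 min sum of culture 2, and 2 fell without the 40 to 50 min sum of culture 2 and 1 without its 50 to 60 min sum. Of 17 iron genes 6 rose and 1 fell, and of 23 cell wall genes 8 rose and 4 fell. The iron genes that rose were 2 without the 40 to 50 min sum of culture 1 or the 30 to 40 min sum of culture 2, and 3 without the 50 to 60 min sum of culture 1 or the 20 to 30 or 40 to 50 min sum of culture 2. The cell wall genes that rose were 3 without either earlier sum of culture 2, 4 without its 50 to 60 min sum, and 5 without its 40 to 50 min sum or any sum of culture 1 but that of 20 to 30 min; 2 fell with library totals.

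With the culture as a block the smaller counts of some lists moved by over 1.5 times. It called 3 translation factors and 3 genes against peroxide higher, and 3 genes each of TORC1, RNA polymerases, the vacuole and iron lower. It called 2 chaperone, respiratory, early G1 and pentose phosphate genes each higher, 2 retrograde and 2 meiosis genes lower, and 1 G2/M, 1 hexose transporter and 1 mitochondrial-genome gene higher. Leaving out 1 sum also moved such counts: no chaperone gene rose without either earlier sum of culture 1 or the 50 to 60 min sum of culture 2, and no respiratory gene rose without either late sum of culture 1 or either earlier sum of culture 2. No autophagy gene fell without the 50 to 60 min sum of culture 1 or either earlier sum of culture 2. Without the 20 to 30 min sum of culture 2, 2 TORC1 genes fell, and 2 iron genes fell without the 30 to 40 min sum of culture 1 or the 40 to 50 min sum of culture 2. A G2/M gene rose without the 20 to 30 min sum of culture 1 or the 50 to 60 min sum of culture 2, and a mitochondrial-genome gene without the 40 to 50 min sum of culture 2.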
